A study of Mus musculus with 18 samples.

Results

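The transcripts of 7 chemokine receptors were followed in bone marrow-derived macrophages (BMDMs): *Ccr1*, *Ccr2*, *Ccr3*, *Ccr7*, *Ccrl2*, *Cx3cr1* and *Cxcr4*. They were chosen by name, with earlier results of these data known. All 7 were among the 20615 genes of the table and among the 15789 genes that passed the filter on low counts. BMDMs are macrophages that M-CSF raises from bone marrow in culture, and they came from female B6 (C57BL/6) mice and from female SjSS (C57BL/6.NOD-*Aec1Aec2*) mice of 7 to 12 weeks. SjSS is a mouse model of Sjögren's syndrome, a B6 line with intervals from the non-obese diabetic (NOD) mouse on chromosomes 1 and 3, so that strain in these data means those intervals and whatever else differs between the colonies. On day 7 of culture the cells were plated, and in each strain there were untreated samples (control), samples given 5 apoptotic cells (AC) per BMDM for 2 h, then washed and cultured for a further 3 h by the labels (the study's methods give a longer time), and samples given CpG, a synthetic DNA ligand of TLR9, at 1 µM for 6 h. The ACs were thymocytes killed with dexamethasone. The study took thymi from mice of both strains, and which donor strain each BMDM strain received for RNA-seq was not stated. If donors matched the BMDMs, strain differences with ACs cannot be told apart from differences between the ACs. RNA-seq gave 18 samples, 3 in each of the 6 groups. The study's legends give 3 mice of each strain, and in another place 3 mice per condition. With 3 mice per strain, samples of different groups would share mice, but which samples did was not stated.

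Chemokines are small secreted proteins that direct the migration of leukocytes, and most of their receptors are G protein-coupled receptors that signal through inhibitory G proteins. CCR2, the receptor of CCL2, brings monocytes out of bone marrow and into inflamed tissue, CX3CR1 binds the membrane-anchored chemokine CX3CL1 and marks patrolling monocytes and many tissue macrophages, and CXCR4, the receptor of CXCL12, holds leukocytes in bone marrow. CCR1 binds CCL3 and CCL5 among others, CCR3 is best known as the eotaxin receptor of eosinophils, and CCR7 guides dendritic cells and lymphocytes to lymph nodes. CCRL2 is an atypical receptor that binds the chemoattractant chemerin without the usual signalling and can present it to CMKLR1 on other cells.

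Of the 7 genes, 5 lie on mouse chromosome 9 (mm10, GENCODE M21). *Ccrl2* spans chr9:111054486-111057520 and *Cx3cr1* chr9:119901616-120068284, both on the minus strand. *Ccr1* (chr9:123962126-123968693, minus strand), *Ccr3* (chr9:124021971-124031690, plus strand) and *Ccr2* (chr9:124101950-124113558, plus strand) lie close together in a cluster of receptor genes, with *Ccr1l1* between *Ccr1* and *Ccr3*. *Cxcr4* lies at chr1:128588199-128592294 and *Ccr7* at chr11:99144196-99155078, both on the minus strand. Whether *Cxcr4* is inside the NOD interval on its chromosome was not tested. The annotated span of *Cx3cr1* takes in *Csrnp1*, *Gorasp1* and *Xirp1* on the same strand.

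For 3 of the receptors, *Ccrl2*, *Ccr3* and *Cxcr4*, the data held a called difference between strains in their response, and the 250 bases before their starts are shown for that reason. The sequences are RefSeq promoters of build GRCm38.p6, in which 6 of the 7 genes were matched (*Ccr7* was not), written in the direction of the gene with matches to 5 searched motifs in capitals. The first is chr9:111057519-111057768 on the minus strand, the second chr9:124021721-124021970 on the plus strand and the third chr1:128592300-128592549 on the minus strand.
Ccrl2: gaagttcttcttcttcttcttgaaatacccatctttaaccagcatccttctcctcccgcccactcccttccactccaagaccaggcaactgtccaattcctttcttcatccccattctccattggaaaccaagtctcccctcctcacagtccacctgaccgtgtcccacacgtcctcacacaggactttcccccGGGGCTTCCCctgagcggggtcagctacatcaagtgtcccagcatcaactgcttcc
Ccr3: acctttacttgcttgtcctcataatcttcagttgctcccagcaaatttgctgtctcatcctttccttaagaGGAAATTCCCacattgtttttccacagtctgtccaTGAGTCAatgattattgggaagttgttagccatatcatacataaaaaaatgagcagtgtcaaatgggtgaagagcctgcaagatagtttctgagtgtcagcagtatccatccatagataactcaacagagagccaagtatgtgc
Cxcr4: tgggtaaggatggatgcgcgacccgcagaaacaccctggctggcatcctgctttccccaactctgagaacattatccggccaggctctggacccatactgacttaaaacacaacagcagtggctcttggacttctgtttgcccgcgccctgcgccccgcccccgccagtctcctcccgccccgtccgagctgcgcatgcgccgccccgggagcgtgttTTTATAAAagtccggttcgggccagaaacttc
The capitals in *Ccrl2* are a match to the NF-kB consensus 56 to 47 bases before the start, those in *Ccr3* a match to the same consensus 179 to 170 bases before it and an AP-1 match (TGANTCA) 144 to 138 bases before it, and those in *Cxcr4* 2 overlapping TATA matches (TATAAA, 1 on each strand) 32 to 25 bases before it. The NF-kB and AP-1 matches did not overlap. Both strands were searched, also for the ISRE (GAAA, any 2 bases, GAAA) and GAS (TTCNNNGAA) motifs, of which none of the 6 genes' windows held a match. Of 32851 mouse promoter windows of this length, 7.25% held the NF-kB consensus, 6.75% the AP-1 motif, 12.4% the TATA motif, 2.98% the ISRE and 7.02% the GAS motif. Among the other receptors, *Ccr1* had an NF-kB match 74 to 65 bases before its start and *Cx3cr1* and *Ccr2* had no match, and 2 further start sites of *Ccrl2* had none. A match describes letters and is not a measured binding site.

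The libraries held 30688336 to 57139662 counts on genes. Values are CPM, counts relative to the library totals after TMM scaling, and comparisons between genes are per kb of exon. Each of 9 comparisons was made with edgeR's quasi-likelihood test over all 15789 genes with Benjamini-Hochberg adjustment, and called genes are those whose adjusted p was under 0.05 and whose log2 fold change exceeded 1.3 in either direction. The AC and CpG responses of a strain share its 3 control samples. The 7 macrophage markers measured, *Lyz2* and *Csf1r* among them, summed to 14835 to 22812 CPM in every sample, with *Lyz2* alone at group means of 8729 to 12472 CPM. The sum was lowest in SjSS control (14835 to 15573 CPM) and highest in B6 CpG samples (20091 to 22812 CPM). Of the 7, *Fcgr1* was called with ACs in SjSS (1.52) and for the AC interaction (1.41), *Adgre1* with CpG in B6 (1.42) and *Mertk* with CpG in SjSS (-1.33).

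The receptors present in untreated BMDMs came in a similar order in both strains (the plot of the make-up of receptor transcripts). In B6 control cells *Cxcr4* led with a mean of 84.4 CPM per kb of exon. *Ccr1* at 23.1 and *Cx3cr1* at 15.2 CPM per kb followed with overlapping samples, then *Ccrl2* at 5.15, *Ccr2* at 1.57, *Ccr3* at 1.18 and *Ccr7* at 0.0986, none of which overlapped with its neighbour. In SjSS control cells the order was the same, with *Cxcr4* at 176 CPM per kb, *Ccr1* at 15.5 and *Cx3cr1* at 13.2 again overlapping, *Ccrl2* at 6.53, *Ccr2* at 3.06, *Ccr3* at 1.68 and *Ccr7* at 0.177. Among 21 receptors of the family compared here, *Cxcr4* made up 46.9% of the summed level per kb in B6 and 68.1% in SjSS control cells.

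Treatment changed which receptor led. With ACs, *Cxcr4* stayed first in B6 cells at 58.1 CPM per kb (41% of the 21 receptors), with *Ccrl2* second among the 7 at 16.9, whereas in SjSS cells *Ccrl2* came first at 172 CPM per kb (54.9%), and *Cxcr4* was at 62.4 (19.9%). With CpG, *Cxcr4* was at 1.95 CPM per kb in B6 (2.30%) and its samples overlapped with those of *Ccr3* at 2.81. In SjSS cells with CpG, *Cxcr4* was still the highest of the 7 at 28.3 CPM per kb (28.4%), with its lowest sample at 17.4 and the highest *Ccrl2* sample at 15.7. *Cmklr1*, the signalling chemerin receptor, led the 21 receptors in both CpG groups, at 45.4 CPM per kb in B6 and 35.7 in SjSS, while its own response to CpG had an adjusted p of 0.786 in B6 and 0.615 in SjSS. Its response to ACs was 0.66 in SjSS (adjusted p = 9.49e-08, under the fold threshold) and -0.01 in B6 (adjusted p = 0.918).

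**Figure D1:**
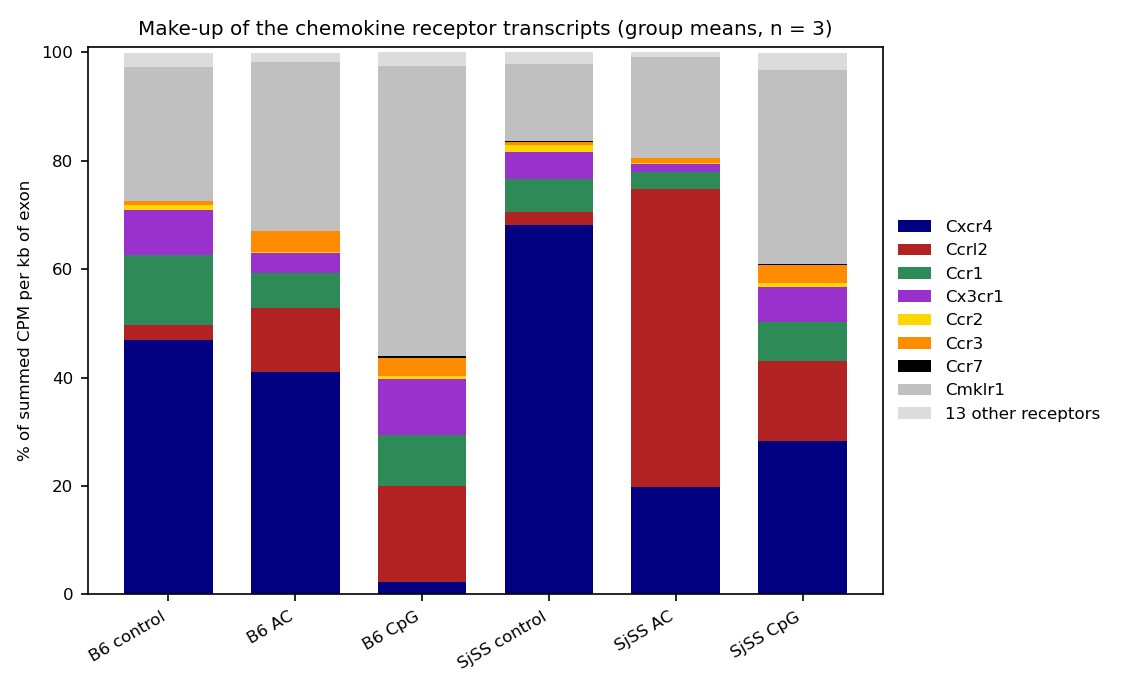
Share of each receptor (y axis, % of the summed CPM per kb of exon of 21 receptors of the family) in each group (x axis), from group means of 3 samples. Cxcr4 held 46.9% in B6 and 68.1% in SjSS control cells, Ccrl2 held 54.9% in SjSS cells with ACs, and Cxcr4 held 2.30% in B6 cells with CpG.

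*Ccrl2* rose with ACs in both strains, and far more in SjSS. In B6 it was at 10.4, 13.1 and 16.7 CPM in control and 38.6, 44.4 and 49.0 CPM with ACs. In SjSS it was at 16.7, 21.9 and 12.4 CPM in control and 428, 460 and 453 CPM with ACs. The AC samples lay above all control samples in each strain, and the SjSS AC samples lay above all others of the data. The log2 fold change was 1.72 ± 0.18 (SE, n = 3 per group, adjusted p = 3.49e-07) in B6 and 4.74 ± 0.19 (adjusted p = 1.20e-13) in SjSS, a rise of 3.29-fold against 26.6-fold. The responses differed by 3.02 ± 0.25 on the log2 scale (95% interval 2.50 to 3.54, adjusted p = 1.68e-08). CpG gave 31, 45.1 and 40.7 CPM in B6 and 40.9, 34.1 and 38.8 CPM in SjSS, overlapping ranges. Its response to CpG was called in B6 (1.54 ± 0.18, adjusted p = 4.10e-07) and was 1.18 ± 0.18 in SjSS (adjusted p = 1.37e-05), under the fold threshold; without SjSS control replicate 2 the latter was 1.39 and called. The CpG responses differed by -0.36 (95% interval -0.89 to 0.16, adjusted p = 0.447). In these bulk samples a change in the share of cells with a transcript and a change of its level per cell cannot be told apart.

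*Ccr3* rose with ACs too, and here the rise was the larger in B6. Its B6 control samples were at 4.36, 3.36 and 3.87 CPM and its B6 AC samples at 19.0, 15.2 and 18.1 CPM. In SjSS it was at 5.19, 5.47 and 5.84 CPM in control and 8.37, 9.46 and 9.22 CPM with ACs. The B6 AC samples were the highest of all 18, and no group of AC samples overlapped with its controls. The log2 fold change was 2.17 ± 0.13 in B6 (adjusted p = 2.33e-10) and 0.71 ± 0.13 in SjSS (adjusted p = 8.84e-05, not called), and the difference of -1.45 ± 0.18 was called (95% interval -1.83 to -1.07, adjusted p = 3.45e-06). *Ccr3* and *Ccrl2* thus had called interactions of opposite sign. With CpG, *Ccr3* was at 9.96, 7.85 and 9.76 CPM in B6 and 10.6, 9.49 and 12.6 CPM in SjSS. These log2 fold changes were 1.25 ± 0.13 (adjusted p = 1.01e-07) and 0.99 ± 0.13 (adjusted p = 2.17e-06), both under the fold threshold, and differed by -0.26 (95% interval -0.64 to 0.12, adjusted p = 0.451). The B6 value was 1.35 and called without B6 control replicate 1, and likewise without B6 CpG replicate 2. Of the 8 eosinophil, basophil and mast cell markers, 3 were in the table, and their sum was 0.178 to 1.72 CPM in all samples. Those were *Il5ra*, *Mcpt8* and *Kit*, and *Il5ra* did not pass the filter. *Prg2* and *Epx* of this list were not analysed, so the sum says little about eosinophils.

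**Figure D2:**
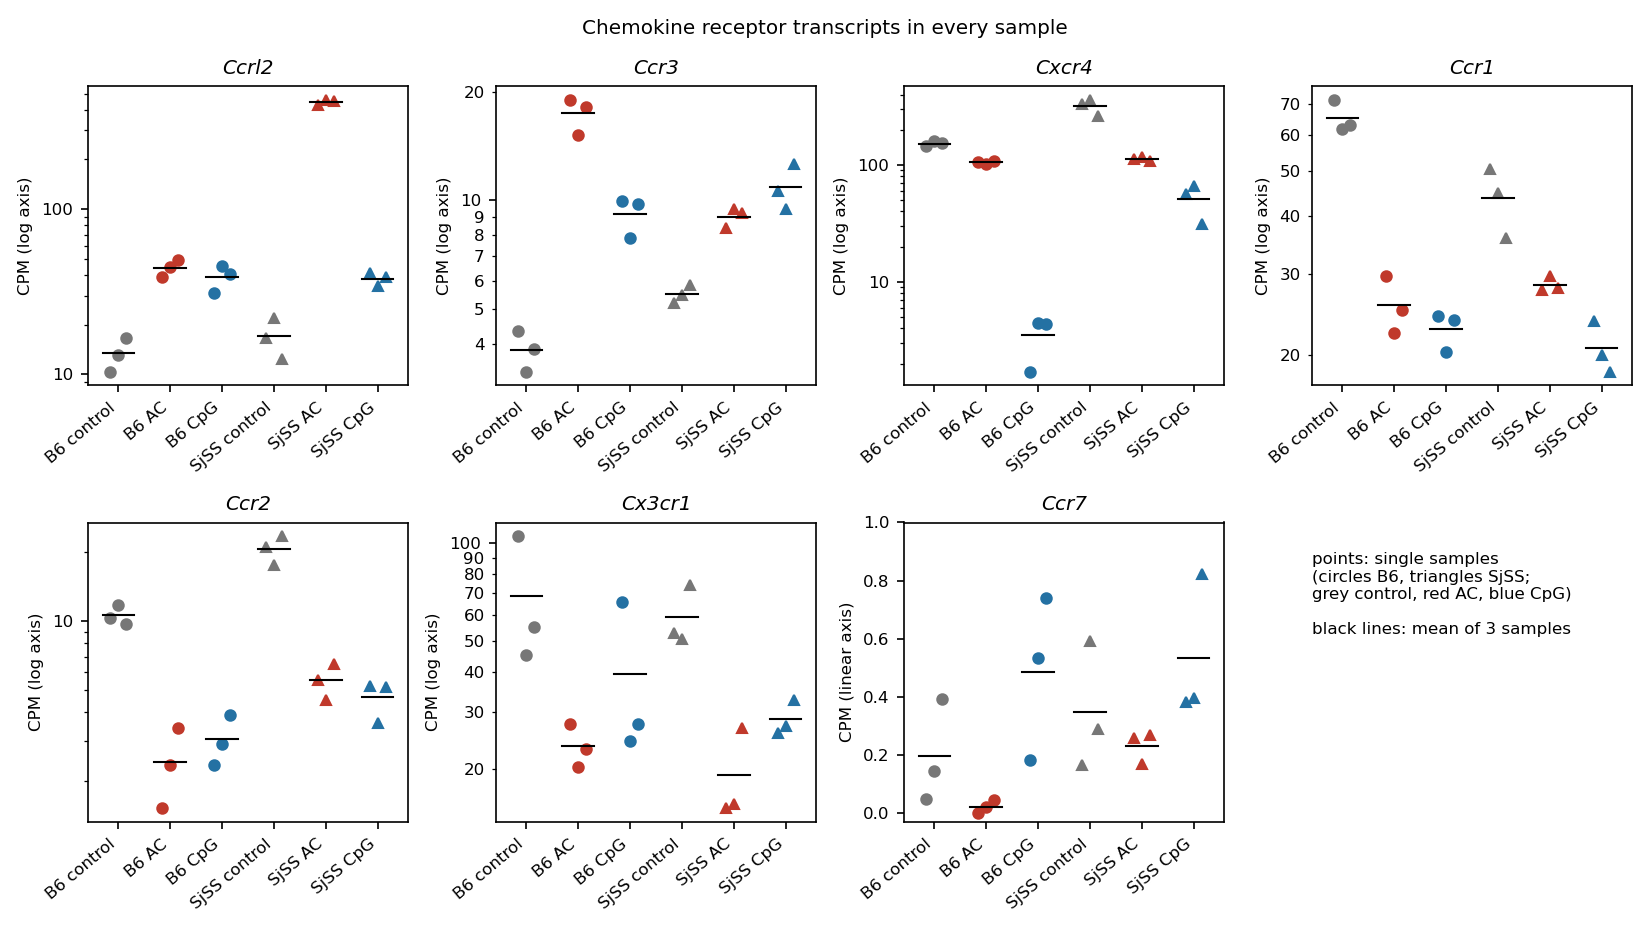
CPM (y axis, log scale except for Ccr7) of each receptor in each of the 18 samples by group (x axis), with the mean of 3 samples as a black line. The SjSS AC samples of Ccrl2 sit between 428 and 460 CPM, above all others, the B6 AC samples of Ccr3 between 15.2 and 19.0 CPM, and the B6 CpG samples of Cxcr4 between 1.71 and 4.47 CPM.

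*Cxcr4* fell with CpG in both strains, and most in B6. It was at 144, 159 and 154 CPM in B6 control cells and at 1.71, 4.47 and 4.39 CPM with CpG. In SjSS it was at 329, 362 and 263 CPM in control and at 56.2, 65.8 and 31.4 CPM with CpG. Each CpG group lay below its controls, and all SjSS CpG samples lay above the B6 CpG samples. The log2 fold change was -5.46 ± 0.27 in B6 (adjusted p = 2.81e-12), 44.0-fold lower, and -2.64 ± 0.22 in SjSS (adjusted p = 5.88e-09), 6.21-fold lower. The difference of 2.82 ± 0.33 between these responses was called (95% interval 2.12 to 3.52, adjusted p = 7.28e-05), 1 of 97 such genes. With ACs it was at 105, 102 and 108 CPM in B6 and at 112, 118 and 108 CPM in SjSS, nearly the same level from unequal controls. Its AC response was called in SjSS (-1.50 ± 0.21, adjusted p = 4.95e-06), while in B6 the value of -0.54 ± 0.21 (adjusted p = 0.0465) was under the fold threshold. The interaction with AC was -0.96 ± 0.29 (95% interval -1.57 to -0.35, adjusted p = 0.014), also under it.

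*Ccr1* was lower with both treatments. In B6 it was at 71.6, 61.7 and 63.0 CPM in control, 29.6, 22.3 and 25.0 CPM with ACs and 24.3, 20.3 and 23.8 CPM with CpG. In SjSS it was at 50.5, 44.9 and 35.9 CPM in control, 27.6, 29.6 and 28.0 CPM with ACs and 23.7, 20.0 and 18.4 CPM with CpG. The treated samples of each strain lay below its controls, and the 2 strains overlapped only once treated. The responses called were those of B6, at -1.35 ± 0.12 with ACs (adjusted p = 5.06e-08) and -1.52 ± 0.12 with CpG (adjusted p = 2.55e-09). The first rests on the fold threshold, since it was -1.28 without B6 control replicate 1 and -1.26 without B6 AC replicate 2. In SjSS the values were -0.62 ± 0.12 with ACs (adjusted p = 1.84e-04) and -1.08 ± 0.12 with CpG (adjusted p = 4.15e-07). The AC responses differed by 0.73 ± 0.17 (adjusted p = 0.00216, under the fold threshold) and the CpG responses by 0.44 (95% interval 0.08 to 0.80, adjusted p = 0.142).

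*Ccr2* fell with both treatments in both strains. It was at 10.3, 11.8 and 9.73 CPM in B6 control cells, 1.53, 2.35 and 3.43 CPM with ACs and 2.36, 2.90 and 3.91 CPM with CpG. In SjSS it was at 21.1, 17.5 and 23.5 CPM in control, 5.56, 4.52 and 6.51 CPM with ACs and 5.22, 3.58 and 5.14 CPM with CpG. Controls were above all treated samples in each strain. All 4 responses were called, at -2.13 ± 0.23 (adjusted p = 5.66e-07) with ACs in B6, -1.91 ± 0.21 (adjusted p = 2.82e-07) with ACs in SjSS, -1.80 ± 0.23 (adjusted p = 1.23e-06) with CpG in B6 and -2.15 ± 0.22 (adjusted p = 8.46e-08) with CpG in SjSS. The difference between strains in response was 0.22 for AC (95% interval -0.42 to 0.87) and -0.36 for CpG (95% interval -1.01 to 0.29), with adjusted p of 0.619 and 0.571. The estimated counts of *Ccr2* were not whole in 18 of 18 samples, as can happen when reads are shared between features, which was not tested, and its level is uncertain. The same limit holds for *Cx3cr1*, *Ccrl2* and *Cxcr4*, whose estimates were not whole in 16, 14 and 12 samples.

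*Cx3cr1* fell with ACs in both strains. It was at 105, 45.0 and 55.1 CPM in B6 control cells and 27.6, 20.3 and 23.2 CPM with ACs, and at 52.8, 50.7 and 74.4 CPM in SjSS control cells and 15.2, 15.6 and 26.9 CPM with ACs. With CpG it was at 65.9, 24.5 and 27.7 CPM in B6 and 26.0, 27.2 and 32.8 CPM in SjSS. Replicate 1 was the highest of each B6 group, and the B6 CpG samples overlapped with their controls, although each was below the control of the same number. The AC responses were -1.53 ± 0.34 in B6 (adjusted p = 0.00125) and -1.63 ± 0.34 in SjSS (adjusted p = 4.44e-04). The call in B6 was lost without B6 control replicate 1, at -1.08 (adjusted p = 0.0131). With CpG the log2 fold change was -0.79 ± 0.33 in B6 (adjusted p = 0.0455) and -1.05 ± 0.33 in SjSS (adjusted p = 0.012), neither called, although the B6 value was -1.39 and called without B6 CpG replicate 1 and -0.34 at the other end of the 18 fits that left out 1 sample. With the replicate number as a block the B6 value was -0.83 (adjusted p = 7.77e-05), still under the fold threshold. The interactions were -0.09 with AC (95% interval -1.08 to 0.89) and -0.26 with CpG (95% interval -1.23 to 0.72), with adjusted p of 0.902 and 0.815. *Csrnp1*, which lies within its span, was higher with ACs, by 3.47 in SjSS (adjusted p = 8.02e-15) and by 0.64 in B6 (adjusted p = 1.43e-04), the latter under the fold threshold.

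*Ccr7* was close to the limit of detection. Its counts were 3, 7 and 22 in B6 control samples, 0, 1 and 2 with ACs and 9, 20 and 34 with CpG, and in SjSS 9, 20 and 16 in control, 10, 8 and 12 with ACs and 17, 16 and 36 with CpG. The highest sample, SjSS CpG replicate 3, was at 0.822 CPM, and the B6 AC samples were the lowest of the data. Pooled over the group, B6 control cells had 32 counts and B6 AC cells 3, a ratio of 9.48 with an exact 95% interval of 2.96 to 48.4, and SjSS AC cells had 30, a ratio of 11.3 to B6 AC cells (3.52 to 58.0). These intervals cover counting error only. The fitted AC response in B6 was -3.09 ± 1.01 (adjusted p = 0.0204), but its adjusted p was 0.166 without B6 control replicate 3, 0.0785 without B6 AC replicate 1 and 0.0634 without B6 AC replicate 2. In a fit of only the B6 control and AC samples *Ccr7* did not pass the filter. In SjSS the AC response was -0.53 ± 0.67 (adjusted p = 0.528), and the AC interaction of 2.57 ± 1.25 had a 95% interval of -0.05 to 5.18 (adjusted p = 0.117).
The CpG response of *Ccr7* was 1.3 ± 0.65 in B6 (adjusted p = 0.0949) and 0.67 ± 0.62 in SjSS (adjusted p = 0.386). With the replicate number as a block the B6 value was 1.42 and called (adjusted p = 0.0236), and it was also called without B6 control replicate 3 (2.34) or B6 CpG replicate 1 (1.71).

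**Figure D3:**
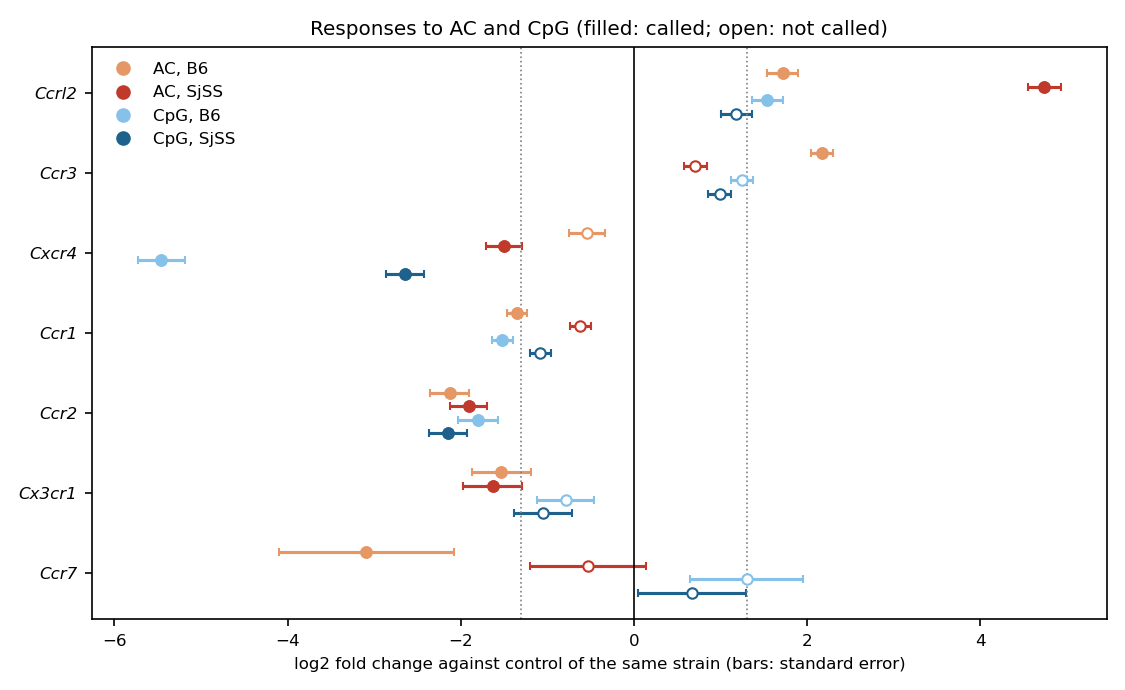
Log2 fold change against the control of the same strain (x axis, bars are SE, n = 3 per group) of each receptor (y axis), with filled points for called responses and dotted lines at the fold threshold of 1.3. Ccrl2 with AC in SjSS (4.74) and Cxcr4 with CpG in B6 (-5.46) lie farthest from 0.

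Over the 7 receptors, 6 were called with ACs in B6, 2 higher and 4 lower, where 4.47% of all tested genes were called. In SjSS 4 were called with ACs, 1 higher and 3 lower, against 12.9% of all genes. With CpG, 4 were called in B6, 1 higher and 3 lower (12.7% of all genes), and 2 in SjSS, both lower (9.26% of all genes). At an adjusted p under 0.05 alone, 7 of 7 passed with ACs in B6 (38.3% of all genes), 6 with ACs in SjSS (58.0%), 6 with CpG in B6 (57.9%) and 6 with CpG in SjSS (54.2%), shares that lie closer to the background. The interaction with AC was called for 2, *Ccrl2* and *Ccr3*, against 7.53% of all genes (4 against 37.9% without the fold threshold), and the interaction with CpG for *Cxcr4* (1 against 0.614%, and also 1 against 5.85% without the fold threshold). The median log2 fold change of the 7 was -1.35 with ACs in B6, -0.62 with ACs in SjSS, -0.79 with CpG in B6 and -1.05 with CpG in SjSS, beside medians of all tested genes of 0.00, -0.02, -0.04 and -0.01.

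Before treatment the strains differed in level for several of the receptors, below the fold threshold. Between untreated SjSS and B6 cells 0 of the 7 were called by edgeR and 0 by DESeq2 (4 at an unadjusted p under 0.05 in edgeR), where edgeR called 2.01% of all genes. At an adjusted p under 0.05 alone, 4 of 7 passed against 19.6% of all genes. *Cxcr4* was higher in SjSS by 1.06 ± 0.21 (adjusted p = 0.00137), *Ccr2* by 0.97 ± 0.20 (adjusted p = 0.00241) and *Ccr3* by 0.51 ± 0.13 (adjusted p = 0.0119), and *Ccr1* was lower, at -0.58 ± 0.12 (adjusted p = 0.00188). In each of these the 3 samples of a strain did not overlap with the other 3. *Ccrl2* differed by 0.33 (95% interval -0.05 to 0.71), *Cx3cr1* by -0.21 (95% interval -0.88 to 0.47) and *Ccr7* by 0.78 (95% interval -0.62 to 2.18), none past the test.

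With ACs, 2 of 7 were called between strains, both higher in SjSS, against 8.93% of all genes, and 4 passed at an adjusted p under 0.05 alone against 49.4%. The 2 called were *Ccrl2*, at 3.35 ± 0.18 (10.2-fold, adjusted p = 1.47e-11), and the low-count *Ccr7*, at 3.34 ± 1.01 (adjusted p = 0.00994). In a fit of only these 2 groups *Ccr7* did not pass the filter, so its call rests on counts in other groups. *Ccr2* was higher by 1.19 ± 0.24 (adjusted p = 3.63e-04) without reaching the fold threshold, which it did without B6 AC replicate 3 (1.51) or SjSS AC replicate 2 (1.32). *Ccr3* was lower, at -0.95 ± 0.12 (adjusted p = 3.12e-06), the reverse of its order in control cells. *Cxcr4* differed by 0.10 (95% interval -0.33 to 0.53), *Ccr1* by 0.15 (95% interval -0.11 to 0.40) and *Cx3cr1* by -0.30 (95% interval -1.02 to 0.42).

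With CpG, 1 of 7 was called, *Cxcr4*, at 3.88 ± 0.27 (14.8-fold higher in SjSS, adjusted p = 8.15e-09), against 2.61% of all genes. It was also the 1 receptor that passed at an adjusted p under 0.05 alone, where 19.7% of all genes did. *Ccrl2* differed by -0.03 (95% interval -0.39 to 0.32), so that the SjSS excess seen with ACs was not detected with CpG.

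**Figure D4:**
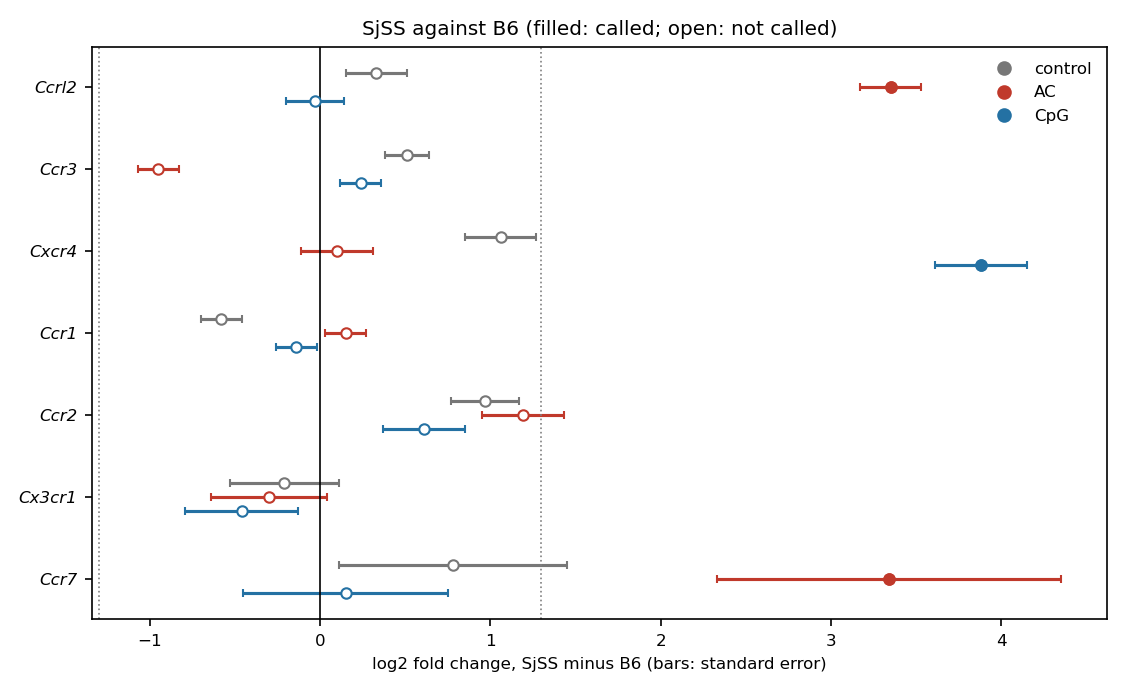
Log2 fold change of SjSS against B6 cells (x axis, bars are SE, n = 3 per group) for each receptor (y axis) in control, AC and CpG samples, with filled points for called differences and dotted lines at the fold threshold of 1.3. Ccrl2 and Ccr7 with AC and Cxcr4 with CpG are the called differences, at 3.35, 3.34 and 3.88. Ccr7 did not pass the filter in a fit of only the AC groups.

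For 6 of the ligands of these receptors (*Ccl12*, *Ccl5*, *Ccl3*, *Ccl7*, *Ccl2* and *Cx3cl1*) the rise with ACs was larger in SjSS than in B6. Of 14 ligands listed, the table held 11, and 10 of them passed the filter. With ACs in SjSS 7 were called higher and 0 lower (median log2 fold change 3.15), and B6 cells had 5 called higher and 1 lower (median 1.36). Of all tested genes, 12.9% were called with ACs in SjSS and 4.47% in B6. *Ccl5* and *Ccl3*, ligands of CCR1, rose by 7.20 and 4.54 in SjSS and by 3.41 and 1.44 in B6. *Ccl9*, another CCR1 ligand, rose by 2.02 in SjSS and 1.55 in B6, and *Ccl6* changed by 0.38 and -0.64, not called. The CCR2 ligands *Ccl12*, *Ccl7* and *Ccl2* rose by 7.60, 4.78 and 3.91 in SjSS, and in B6 *Ccl12* rose by 2.32 and *Ccl7* by 1.88 while *Ccl2*, at 1.28, was just under the fold threshold. *Cx3cl1*, the ligand of CX3CR1, rose by 2.39 in SjSS and was at 1.01 in B6, not called. *Cxcl12*, the ligand of CXCR4, was at 0.27 and -0.24, neither past the test. *Ccl24*, a CCR3 ligand with group means of 0.0922 to 0.614 CPM, fell by 1.45 in B6 and was at 0.63 in SjSS, not past the test. *Rarres2*, which encodes chemerin, did not pass the filter, with group means from 0.014 to 0.115 CPM.
The AC interaction was called for 7 of the 10 ligands, all positive: *Ccl12* (5.29), *Ccl5* (3.79), *Ccl3* (3.10), *Ccl7* (2.90), *Ccl2* (2.63), *Ccl24* (2.08, with its fall in B6) and *Cx3cl1* (1.39). It was 1.02 for *Ccl6* and 0.47 for *Ccl9*, under the fold threshold, and 0.50 for *Cxcl12* (adjusted p = 0.269). Of all tested genes, 7.53% were called for the AC interaction. With CpG the calls were 4 higher and 1 lower in B6 cells, while SjSS cells had 3 higher and 1 lower, with 0 of 10 called for the CpG interaction by edgeR or by DESeq2. Of all tested genes, edgeR called 12.7% with CpG in B6, 9.26% with CpG in SjSS and 0.614% for the CpG interaction. The 0 of 10 is thus near the share of all genes. In edgeR 2 ligands had an unadjusted p under 0.05 for the CpG interaction. Of these 1, *Ccl3*, passed at an adjusted p under 0.05 alone (-0.58, adjusted p = 0.0341), against 5.85% of all genes. *Ccl3* rose with CpG by 5.37 in B6 and 4.79 in SjSS, *Ccl5* by 5.35 and 4.61 and *Ccl12* by 3.94 and 3.45. *Ccl9* rose by 1.42 in B6 and was at 1.18 in SjSS, not called, and *Ccl24* was called lower, at -1.70 and -1.65. The other ligands were not called with CpG, with values of 0.99 and 0.77 for *Ccl2*, 1.15 and 0.93 for *Ccl7*, 0.31 and 0.53 for *Cx3cl1*, -0.79 and -0.50 for *Ccl6* and -0.92 and -0.43 for *Cxcl12* in B6 and SjSS. Between strains with ACs 6 ligands were called higher in SjSS and 0 lower, and with CpG or in control cells 0 were called by edgeR or by DESeq2. Of all tested genes, edgeR called 8.93% between strains with ACs, 2.61% with CpG and 2.01% in control cells. In edgeR 3 had an unadjusted p under 0.05 in control cells and 7 with CpG. At an adjusted p under 0.05 alone, 2 were lower in SjSS control cells (19.6% of all genes passed), and with CpG 1 was higher and 5 were lower (19.7%).

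Of 17 other receptors of the family, the table held 14, and 7 of them passed the filter. *Xcr1* was called higher in all 4 responses, at 1.53 with ACs and 2.71 with CpG in B6 and at 2.94 and 1.71 in SjSS, from levels of 0.148 CPM in B6 and 0.279 CPM in SjSS control cells. *Ccr9* was called higher with CpG in B6 (3.17), with CpG in SjSS (2.15) and with ACs in SjSS (1.74). *Cxcr3* was called lower with CpG in B6 (-2.21) and with ACs in SjSS (-1.50). With ACs *Xcr1* was also called higher in SjSS than in B6 (2.32) and for the interaction (1.41), and no other comparison of strains called any of the 7. Of all tested genes, 2.01% were called between strains in control, 2.61% with CpG and 0.614% for the CpG interaction. At an adjusted p under 0.05 alone, 1 of the 7 was lower in SjSS control cells (19.6% of all genes passed). With CpG 1 was higher and 1 lower (19.7%), and with ACs 3 were higher (49.4%). The AC interaction passed for 2 (37.9%), with *Cmklr1* at 0.67 (adjusted p = 1.92e-05). The CpG interaction passed for 1 (5.85%), *Cxcr3* at 0.91 (adjusted p = 0.0201), which was 1.14 higher in SjSS with CpG.

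All 14 listed genes of receptor signalling and desensitization passed the filter. With CpG 3 were called higher and 2 lower in each strain, with ACs 3 higher in SjSS, and in B6 0 with ACs by edgeR or DESeq2 (8 at an unadjusted p under 0.05 in edgeR). Of all tested genes, edgeR called 12.7% with CpG in B6, 9.26% with CpG in SjSS, 12.9% with ACs in SjSS and 4.47% with ACs in B6. With 14 genes, the counts with ACs do not set this list apart from those shares. *Rgs1* and *Rgs2*, regulators that end G protein signalling, lie on the chromosome of *Cxcr4*. *Rgs2* was called lower with CpG, at -4.17 in B6 and -2.62 in SjSS. *Rgs1* fell by 2.30 in B6 and was at -0.81 in SjSS, not called. Both were called for the CpG interaction, at 1.55 (adjusted p = 0.00261) and 1.49 (adjusted p = 0.00737), and both were called higher in SjSS than in B6 with CpG, at 2.10 and 1.36. *Rgs1* is at chr1:144242296-144249243 and *Rgs2* at chr1:143999338-144004162 (mm10). *Rgs16* was called higher with ACs in SjSS (1.98), for the AC interaction (1.59) and between strains with ACs (2.35), and lower with CpG in SjSS (-1.64). *Pik3cg* and *Pik3r5*, the subunits of the PI3K that chemokine receptors engage, rose with CpG in B6 (1.66 and 2.11) and in SjSS (1.66 and 1.89), and *Pik3r5* rose with ACs in SjSS (1.48). *Adrbk2*, a receptor kinase, rose with ACs (1.65) and with CpG (1.84) in SjSS, and *Rac2*, a GTPase of leukocyte migration, with CpG in B6 (1.34).

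Genes with the most similar pattern were sought by Pearson's r of log2 CPM over the 18 samples, among 11273 genes, as a description. Samples of a group share their treatment, so these values mostly describe 6 groups. *Ccrl2* was most like *Ifih1* (r = 0.989), *Iigp1* (0.987) and *Ripk2* (0.986), and *Cxcr4* most like *Arl4c* (0.981), *Rgs2* (0.979) and *Fam3c* (0.971). The closest genes were *Atp2b1* (0.959), *Peli2* (0.948) and *Pgap1* (0.946) for *Ccr1*, *Dennd2d* (0.938), *Cnrip1* (0.928) and *Apba1* (0.925) for *Ccr2*, and *Lsg1* (0.915), *Cul4a* (0.905) and *Ddx51* (0.897) for *Ccr3*. For *Cx3cr1* they were *Lbr* (0.940), *Mlec* (0.912) and *Rapgef6* (0.885), and for *Ccr7* *Stac2* (0.885), *Tcf25* (0.877) and *Cd300ld* (0.857). Among the 7 receptors themselves, r ran from -0.81 for *Ccr1* with *Ccr3* to 0.70 for *Ccr1* with *Ccr2*. Of these 3 genes of the chromosome 9 cluster, *Ccr3* thus differed in pattern from *Ccr1*, and also from *Ccr2* (r = -0.79).

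Markers of other cells differed between groups in ways that could touch these genes, since monocytes carry *Ccr2* and *Cx3cr1*, dendritic cells *Ccr7* and *Xcr1*, and thymocytes, the source of the ACs, *Cxcr4*, *Ccr7* and *Ccr9*. The 3 monocyte markers (*Ly6c2*, *Plac8* and *Vcan*) summed to 20.4 to 28.1 CPM in SjSS AC samples and to 3.34 to 8.84 CPM in all others. The SjSS AC sum was mostly *Vcan* (16.2 CPM) and *Plac8* (7.74 CPM). *Ly6c2*, at 0.579 CPM there, was higher in the CpG groups, at 1.87 CPM in B6 and 1.37 CPM in SjSS. All 3 markers were called for the AC interaction (7.53% of all genes were), while *Ccr2* and *Cx3cr1* were lower with ACs. The dendritic cell list, with 6 of 7 in the table, summed to 3.13 to 3.72 CPM in SjSS AC samples and 1.26 to 2.47 CPM in the others, with *Flt3* at 0 in B6 AC samples. The rise in SjSS was mostly *Xcr1*, itself a receptor reported above, from 0.279 CPM in control to 2.13 CPM with ACs. *Xcr1* alone of the list was called there. *Clec9a* went from 0.536 to 0.263 CPM and *Itgae* from 0.222 to 0.127 CPM, *Zbtb46* from 0.353 to 0.515 CPM and *Dpp4* from 0.121 to 0.284 CPM. The 10 T cell and thymocyte markers summed to 13.4 to 18 CPM in SjSS AC samples, 4.11 to 4.64 CPM in B6 AC samples and 4.78 to 11.5 CPM elsewhere. That sum was mostly *Cd4*, with group means of 14.0 CPM in SjSS AC and 3.57 CPM in B6 AC samples, and only *Cd4* and *Lck* of the 10 passed the filter. *Rag1*, which thymocytes need to assemble their antigen receptors, did not pass the filter and was at 0 in the 4 groups without ACs. It had 24 counts over the B6 AC samples (0.163 CPM) and 3 over the SjSS AC samples (0.0231 CPM). Other markers of the list did not all share this pattern. *Cd8b1* was at 0.0945 CPM in B6 AC and 0.0118 CPM in B6 control samples, but *Cd3e* was at 0.0401 and 0.0515 CPM. *Trac* was at 0.0265 CPM in B6 AC and 0.127 CPM in B6 CpG samples. The study reports that *Cd3* and *Trac* could not be detected in its BMDM samples. Of the neutrophil list, 4 of 7 in the table, the sum was 11.2 to 12.8 CPM in B6 CpG samples and 2.31 to 5.96 CPM in the others, with *Camp* and *Ngp* at 0 in SjSS control cells. The B6 CpG sum was mostly *S100a8* (9.41 CPM), then *Camp* (1.80 CPM), both called higher with CpG in B6 (12.7% of all genes were called). *S100a9* (0.816 CPM) was not past the test there (adjusted p = 0.364), and *Ngp* did not pass the filter. The 4 B cell markers summed to 0.0605 to 1.12 CPM in all samples. The part of such cells in the receptor changes was not tested.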

How the data were processed

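RNA-seq of 18 BMDM samples (6 groups of 3, from the labels) was used. In Partek Flow, the authors mapped reads to mm10 (STAR) and counted them by expectation maximization (E/M), and they deposited estimated counts per gene, not normalized, of which 41.1% were not whole (tolerance 1e-06), as when reads are shared between features. The counting strand was not given in the sources used here, so overlapping genes may share reads. Counts were rounded to whole numbers. Totals were 30688336 to 57139662 per sample, and *Ccr7* had at most 36 counts in a sample.

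Fits were run with edgeR 4.0.16, DESeq2 1.42.0 and limma 3.58.1 under R 4.3.3, and tables with Python 3.11.15 with pandas 2.3.3, numpy 2.4.6 and matplotlib 3.10.9. After filterByExpr (15789 of 20615 genes) and TMM scaling, 1 quasi-likelihood model with a mean for each group was fitted to all 18 samples (12 residual degrees of freedom), with P values adjusted over all tested genes by the Benjamini-Hochberg method. The fold threshold is that of the study's methods. SE is the log2 fold change divided by the square root of F, and 95% intervals use the moderated degrees of freedom. P values measure the spread between these samples. Exon lengths are unions of GENCODE M21 basic exons. Genes most like each member have a mean log2 CPM of at least 1 (prior count 2).

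The rule for named genes covered the 7 members, every ligand listed, other listed genes where called in at least 1 comparison, the cell type markers and the 3 genes most like each member. Members and lists were chosen with earlier results of these data known. *Ccr6*, *Ccr8*, *Ackr1*, *Ccl11*, *Ccl19*, *Ccl21a*, *Cd209a*, *Ly6g*, *Elane*, *Mpo*, *Prg2*, *Epx*, *Cpa3*, *Ms4a2* and *Fcer1a* were not analysed here. A listed receptor and a listed marker are not reported here and were left out of the counts and sums of their lists. Alternatives were DESeq2's Wald test, its size factors within edgeR, no filter, 10 counts in 3 samples, a log2 fold threshold of 2 or none, a replicate block, fits restricted to the groups being compared, and every sample omitted once. The code was tested on simulated data. No label says that a replicate number marks 1 mouse across groups. Deviations from the group means of same-numbered B6 control and CpG samples correlated at 0.137 to 0.264, every pair over 0.1. The reported fit has no block, and blocked values stand beside the CpG responses of B6 where they bear on a call.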

Additional observations from a re-analysis of the deposited data

Results flagged for a closer look

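The responses of 4 receptors differed between strains under the same treatment in 5 results, by the interaction term of edgeR's fit, and each is given as a value. *Ccrl2* rose more with ACs in SjSS, by 3.02 on the log2 scale (called). *Ccr3* rose less with ACs in SjSS, with an interaction of -1.45 (called). *Cxcr4* fell less with CpG in SjSS, with an interaction of 2.82 (called), and its interaction with AC was -0.96, of the opposite sign and under the fold threshold. *Ccr1* fell less with ACs in SjSS, with an interaction of 0.73, under the fold threshold. Groups of 3 samples were too small for a test of single outlying samples.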

How the results depend on the processing

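Of the 63 receptor and comparison pairs, DESeq2, its size factors within edgeR and the other filters changed no call. With a log2 fold change over 2, the receptors called numbered 3 with ACs in B6, 1 with ACs in SjSS, 1 with CpG in B6 and 1 for the AC interaction. With no fold threshold they numbered 6 with CpG in SjSS, 4 between strains in control, 4 between strains with AC and 4 for the AC interaction. In fits of only the 2 groups compared, 5 were called with ACs in B6 and 1 between strains with AC, since *Ccr7* did not pass the filter there. Over all genes, a log2 fold change over 2 left 243, 1022, 922 and 632 called for the AC responses of B6 and SjSS and the CpG responses of B6 and SjSS, and no fold threshold 6047, 9154, 9147 and 8560, against 705, 2040, 2011 and 1462. For the strain differences in control, with AC and with CpG and the interactions with AC and CpG, these were 143, 609, 176, 520 and 28, and 3096, 7807, 3118, 5987 and 923, against 318, 1410, 412, 1189 and 97.

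With 1 sample left out, 4 to 6 receptors were called with ACs in B6, 4 with ACs in SjSS, 4 to 6 with CpG in B6, 2 to 3 with CpG in SjSS, 0 between strains in control, 2 to 3 with AC, 1 with CpG, 2 for the AC interaction and 1 for the CpG interaction. Of 1134 such values, 15 turned sign, and the results they belong to had not passed the test. *Ccr7* ran from -0.89 to 0.02 for the AC response in SjSS and from -0.31 to 0.59 between strains with CpG. *Ccrl2* ran from -0.18 to 0.08 between strains with CpG, and *Ccr2* from -0.02 to 0.54 for the AC interaction. *Cx3cr1* ran from -0.43 to 0.25 between strains in control, -0.71 to 0.13 with CpG, -0.55 to 0.13 for the AC interaction and -0.71 to 0.34 for the CpG interaction.

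Apart from B6 control and CpG, not every correlation of same-numbered samples was over 0.1, so those numbers were not taken as pairs. Every sample correlated best with its own number in 5 of 6 pairs of groups within a strain, and 2 of 6 samples did between B6 control and AC, a hint from the data and not from the design. With the replicate number as a block, *Ccr7* was also called for the AC interaction (2.53, adjusted p = 0.0462), and no other receptor call changed beside that of *Ccr7* with CpG in B6 (1.42). Of the 21 most similar genes, 4 ranked first by Spearman's rho, and by group means the 21 ranked between 4 and 35. Depth limits *Ccr7*, at 0 to 36 counts per sample.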
